A study of Mus musculus with 6 samples.

Results

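The genes described here are 39 genes of DNA replication, the set of proteins that a cell makes to copy its chromosomes in S phase. They were chosen by name, with earlier results of these data known, and all 39 are among the 25700 genes of the deposited table. All 39 also passed the filter on low counts and are among the 19264 genes tested. RNA was sequenced from the proximal end of the incisor of 5-week-old C57BL/6 mice, 3 controls of the genotype Runx2fl/fl and 3 conditional knockouts (cKO) of the genotype Gli1-CreERT2;Runx2fl/fl. Both groups carry floxed alleles of Runx2, which encodes a regulator of osteoblast and odontoblast development, and the control genotype names no Cre. The cKO allele Gli1-CreERT2 places a tamoxifen-dependent Cre under control of Gli1, so recombination starts only in Gli1-expressing cells and their progeny. All 6 samples have the same treatment text, 3 daily injections of tamoxifen in corn oil (1.5 mg per 10 g body weight) beginning at 1 month, and the design text places collection 1 week after induction. The 3 mice of a group carry separate animal numbers in the labels, and replicate numbers here follow accession order. Sequencing is described as done on 3 pairs, and no label tells which mice form a pair, so the tests treat the mice as unpaired. Controls without Cre mean that an effect of Runx2 loss and one of the Gli1-CreERT2 allele cannot be told apart, and reads from cells without Cre are part of every cKO value.

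DNA replication begins with licensing. The origin recognition complex, with CDC6 and CDT1, loads the ring of MCM2 to MCM7 on DNA, and CDC45 and the GINS complex then turn the ring into the working helicase. DNA polymerase alpha with primase starts each strand, polymerases delta and epsilon extend it on the sliding clamp PCNA, and FEN1 and LIG1 join the fragments of the lagging strand. Most of these genes are transcribed from E2F sites late in G1 and early in S phase, so their RNA is widely read as a mark of cycling cells. In the continuously growing mouse incisor, cells divide near the proximal end, both in the mesenchyme and in the epithelium of the cervical loops.

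The libraries held 53525185 to 66694240 estimated counts each, and levels are given as CPM, the usual scaling of counts to library size, with library sizes adjusted by TMM. The targeted gene Runx2 measured 79.7, 77.7 and 81.2 CPM in control 1 to 3 and 62.6, 53.97 and 49.03 CPM in cKO 1 to 3, with no overlap between the groups. All 14 listed markers of dental mesenchyme and all 12 of dental epithelium had counts in every library, so the tissue labelled dental mesenchyme also gave epithelial RNA. Control 1 stood apart in sex, as the mouse with 4059 counts of the Y-linked gene Ddx3y against at most 1 in the other 5, and in skeletal muscle RNA. The 10 muscle markers added up to 416 CPM there and to between 12.9 and 17.4 CPM in each other library. Control 3 stood apart within the replication genes themselves, as described below. It also had the highest summed epithelium markers and the lowest summed mesenchyme markers of the controls.

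As a set the replication genes were lower in cKO mice by 18.8% of their summed control level, and no single member passed the edgeR test over all genes. Summed over the 39 genes, the level was 810.2, 892 and 1063 CPM in control 1 to 3 and 745, 762 and 739 CPM in cKO 1 to 3, or 922 ± 129 against 748 ± 11.6 CPM (SD, n = 3 each). Every cKO sum lay below every control sum, and the 3 cKO sums lay closer together than any pair of controls. The ratio of the summed levels, cKO over control, was 0.812 with all mice, 0.765 without control 1 and 0.879 without control 3. In bulk tissue, fewer cycling cells and less of these RNAs per cell cannot be told apart. Summed markers of epithelium and mesenchyme also differed between the groups, as given below, and their part in this result was not tested.

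**Figure D1:**
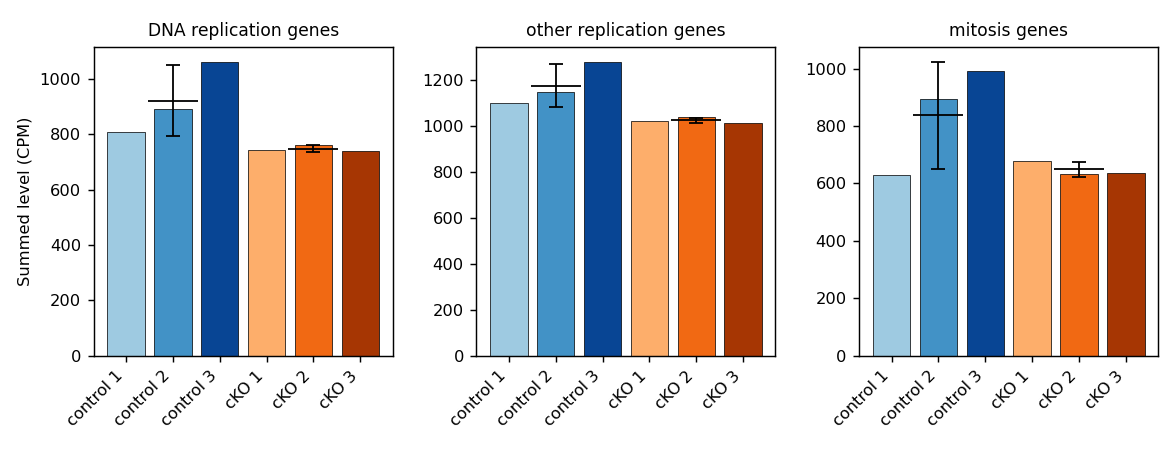
Bars give the summed level in CPM of 3 gene lists in each of the 6 libraries, and the black line and whiskers are the mean ± SD of the 3 mice of a group. For the 39 replication genes the cKO bars lie between 739 and 762 CPM and the control bars between 810.2 and 1063 CPM.

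Of the 39 members, 37 had a log2 fold change below 0, where 50.0% of all tested genes did. The median was -0.34 (20.8% lower) beside a median of 4.8e-05 over all tested genes, and the members ranged from -0.58 (Cdc6) to 0.060 (Ccne1). By edgeR's quasi-likelihood test with Benjamini-Hochberg adjustment over all genes, 0 members were called lower (0.00519% of all tested genes) and 0 higher (0.0208%). At an unadjusted edgeR p under 0.05, 27 members were lower, where 8.55% of all tested genes were, and 0 were higher, where 8.71% were. DESeq2 called 7 members lower at an adjusted p under 0.05, beside 3.66% of the genes to which it gave an adjusted p, and 0 higher, beside 4.02%. In 23 members every cKO mouse lay below every control, which held for 12.0% of all tested genes, and in 0 every cKO mouse lay above every control (11.1% of all tested genes).

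The 7 members that fell by DESeq2 were Prim2 (DESeq2 adjusted p = 0.0110), Lig1 (0.0146), Mcm3 (0.0209), Rfc5 (0.0239), Pcna (0.0328), Mcm2 (0.0472) and Uhrf1 (0.0498). None of them was called under the 13 other alternatives, which all used edgeR or limma, also where 1 mouse was left out. Over all 14 alternatives the adjusted p of Prim2, the lowest of the 7, ran from 0.0110 to 0.282. The DESeq2 count rested on the mice included. DESeq2 was also run with 1 mouse left out, in tests chosen after seeing the data and not counted among the 14 alternatives. The count was then 22 without control 1 (3.64% of genes), 3 without control 2 (3.21%) and 2 without control 3 (1.86%). Without control 1 it included all 7 named members, with Prim2 at a DESeq2 adjusted p of 0.00675. Among cKO mice it was 0 without cKO 1 (3.37%), 1 without cKO 2 (2.58%) and 0 without cKO 3 (1.88%). Without control 3 the edgeR median was -0.21, with 36 of 39 members below 0 (50.2% of all tested genes), and without control 1 it was -0.41, with 38 below 0 (48.7%). Without control 2 it was -0.35, with 37 below 0 (49.9%). Without cKO 1, 2 or 3 it was -0.33, -0.30 or -0.32, with 38 (48.8%), 36 (48.6%) or 37 (51.3%) members below 0.

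The controls differed among themselves more than the cKO mice did. Control 3 had the highest level of the 3 controls in 37 of 39 members, as it did in 37.5% of all tested genes, and the highest of all 6 libraries in 36. Control 1 had the lowest level of the controls in 35 members, as it did in 31.9% of all tested genes. The level in control 3 was 1.34 times that in control 1 at the median member. The coefficient of variation over controls exceeded that over cKO mice in 36 of 39 members, against 51.3% of all tested genes. Its median over members was 15.3% in controls and 4.53% in cKO mice, while over all tested genes the medians were 9.39% and 9.20%.

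**Figure D2:**
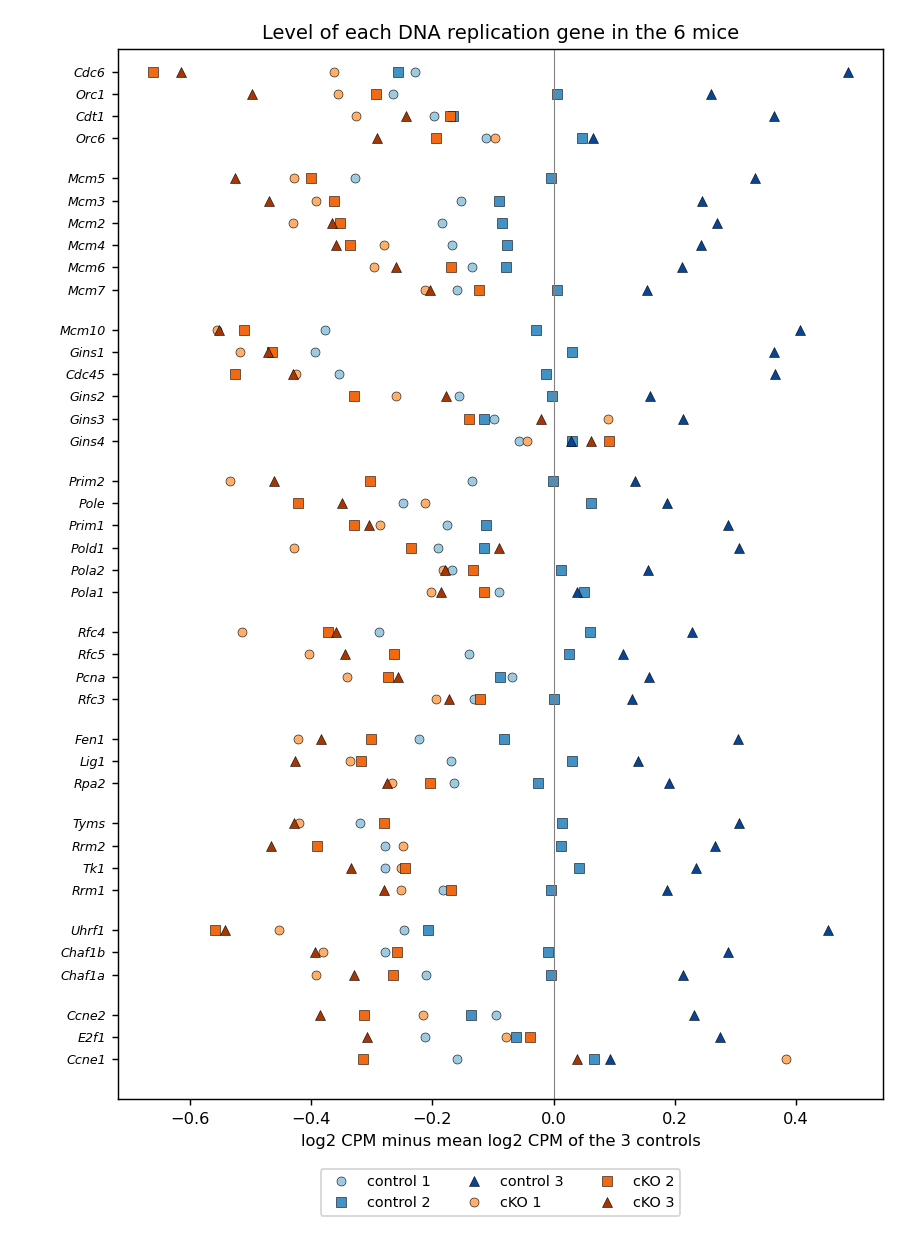
Each row is 1 replication gene, grouped by role, and each point is 1 mouse, placed by its log2 CPM minus the mean log2 CPM of the 3 controls. Control 3 is the rightmost point in 36 of 39 rows, the cKO points cluster to the left, and control 1 lies to the right of all cKO points in 23 rows.

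Control 1, the low control, still lay above all 3 cKO mice in 23 members, within their range in 15 and below them in 1, Gins4. Control 2 lay above all cKO mice in 34 members and within their range in 5, and control 3 in 37 and 2. With control 1 left out, the remaining groups did not overlap in 34 members, toward lower values in cKO, beside 17.6% of all tested genes. They did not overlap in 23 members without control 2, beside 18.8%, and in 23 without control 3, beside 15.3%. At an unadjusted edgeR p under 0.05, 33 members were lower without control 1 (7.50% of all tested genes), 17 without control 2 (8.15%) and 11 without control 3 (5.73%). The count was 14 without cKO 1 (8.19%), 13 without cKO 2 (6.40%) and 13 without cKO 3 (5.55%).

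All 4 licensing genes had a lower mean in cKO mice, and their median log2 fold change was -0.33 with all mice and -0.21 without control 3. Cdc6, which brings the MCM ring to the origin (chromosome 11, 98907801 to 98923940, build mm10, as for all gene positions here), measured 5.55, 5.44 and 9.10 CPM in control 1 to 3 and 5.06, 4.11 and 4.24 CPM in cKO 1 to 3 (log2 fold change -0.58, SE 0.22, edgeR adjusted p = 0.246). Control 3 was far above the other controls, and the groups did not overlap. Without control 3 the log2 fold change of Cdc6 was -0.30. Orc6, a subunit of the origin recognition complex (chromosome 8, 85299632 to 85308278), measured 16.6, 18.5 and 18.8 CPM in control 1 to 3 and 16.8, 15.7 and 14.7 CPM in cKO 1 to 3 (log2 fold change -0.19, SE 0.083, edgeR adjusted p = 0.295). Here control 1 lay below cKO 1, so the groups overlapped. Orc1, the ATPase subunit of the same complex, had the lowest level per length of all members and a log2 fold change of -0.40. Cdt1, the partner of CDC6 in loading, was at -0.27 with all mice and at -0.064 without control 3.

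The 6 subunits of the MCM ring were all lower, by 12.03% (Mcm7) to 28.1% (Mcm5), with a median log2 fold change of -0.37 with all mice and -0.23 without control 3. Mcm3 (chromosome 1, 20802968 to 20820312) measured 29.6, 30.95 and 39.04 CPM in control 1 to 3 and 25.1, 25.6 and 23.8 CPM in cKO 1 to 3 (log2 fold change -0.42, SE 0.11, edgeR adjusted p = 0.131). Mcm6, the subunit of highest CPM (chromosome 1, 128331590 to 128359664), measured 64.2, 66.7 and 81.6 CPM in control 1 to 3 and 57.4, 62.6 and 58.8 CPM in cKO 1 to 3 (log2 fold change -0.25, SE 0.096, edgeR adjusted p = 0.250). In both genes control 3 was highest and the groups did not overlap, although control 1 and control 2 lay close to the cKO values of Mcm6, whose log2 fold change was -0.14 without control 3. Mcm5 was at -0.48, Mcm2 at -0.40 and Mcm4 at -0.34, also without overlap. Mcm7 was at -0.18, and its control 1 lay within the cKO range.

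Per kilobase of exonic sequence (the union of a gene's exons in GENCODE M21), the MCM subunits were not level with each other, although the ring holds 1 copy of each. Over the 3 controls Mcm6 measured 13.8 to 17.5 CPM per kb, Mcm4 11.5 to 15.2, Mcm7 9.59 to 11.9, Mcm3 7.90 to 10.4, Mcm5 6.21 to 9.81 and Mcm2 4.33 to 5.93. The ranges of neighbours in this order overlapped across the 3 controls, except at its end, where every control was lower for Mcm2 than the lowest control for Mcm5. Within every single library, control or cKO, the order was the same, so the overlap came from differences between mice. The cKO means ran from 12.8 for Mcm6 to 3.77 for Mcm2. Which transcripts of a gene were made was not measured, and a union that includes rarely used exons lowers the value.

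**Figure D3:**
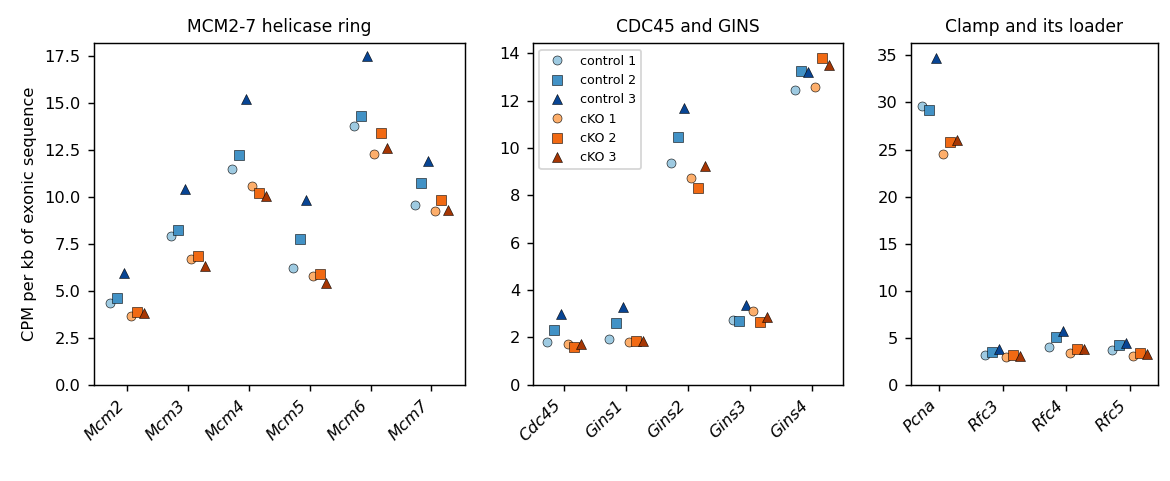
Each point is 1 mouse, and the vertical axis is the level in CPM per kb of exonic sequence, for the MCM ring, for CDC45 and the GINS complex, and for the clamp PCNA with 3 subunits of its loader. Control 3 is the highest point of each MCM gene, while the 6 points of Gins4 lie together.

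Promoters of 4 MCM genes hold short E2F motifs, while the Mcm2 window held no match and Mcm4 had no window to search. They are shown because the MCM genes had lower means together. Windows from 250 bases before to 50 after the start site came from RefSeq (GRCm38.p6, the assembly of mm10) and were at hand for 32 of the 39 members. They were searched on both strands for TTTCCCGC, TTTGGCGC, TTTCGCGC and TTTGCCGC, 4 spellings of the E2F motif. At least 1 match stood in 13 of the 37 member windows (35.1%), against 3.57% of the windows of all tested genes and 2.26% of all windows in the table. By gene, 13 of 32 members had a match, and 5 had more than 1, namely Mcm3, Mcm5, Mcm6, Mcm7 and Rfc3. The windows of the 4 MCM genes follow, 5′ to 3′ on the strand of the gene, with the motif matches in capitals; matches on opposite strands overlap in Mcm5 and Mcm6.
Mcm3, chr1:20820263-20820562, minus strand: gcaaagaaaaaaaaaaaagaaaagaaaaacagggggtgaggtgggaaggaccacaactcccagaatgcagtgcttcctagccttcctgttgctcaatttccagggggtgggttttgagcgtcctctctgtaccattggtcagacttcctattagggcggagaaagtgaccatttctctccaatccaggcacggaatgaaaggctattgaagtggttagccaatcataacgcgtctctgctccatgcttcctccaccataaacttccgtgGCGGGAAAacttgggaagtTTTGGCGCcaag
Mcm5, chr8:75109259-75109558, plus strand: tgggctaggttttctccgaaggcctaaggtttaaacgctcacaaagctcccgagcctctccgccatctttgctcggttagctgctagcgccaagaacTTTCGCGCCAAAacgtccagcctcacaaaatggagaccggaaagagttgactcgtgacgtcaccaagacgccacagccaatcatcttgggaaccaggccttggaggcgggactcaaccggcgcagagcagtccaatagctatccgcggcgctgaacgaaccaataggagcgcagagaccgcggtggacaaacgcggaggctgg
Mcm6, chr1:128359656-128359955, minus strand: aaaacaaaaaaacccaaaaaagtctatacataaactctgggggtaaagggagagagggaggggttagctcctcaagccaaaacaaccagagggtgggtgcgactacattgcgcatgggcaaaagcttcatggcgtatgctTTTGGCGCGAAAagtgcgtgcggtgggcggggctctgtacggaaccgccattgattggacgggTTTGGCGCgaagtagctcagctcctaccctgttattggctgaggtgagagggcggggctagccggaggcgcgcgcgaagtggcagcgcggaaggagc
Mcm7, chr5:138171834-138172133, minus strand: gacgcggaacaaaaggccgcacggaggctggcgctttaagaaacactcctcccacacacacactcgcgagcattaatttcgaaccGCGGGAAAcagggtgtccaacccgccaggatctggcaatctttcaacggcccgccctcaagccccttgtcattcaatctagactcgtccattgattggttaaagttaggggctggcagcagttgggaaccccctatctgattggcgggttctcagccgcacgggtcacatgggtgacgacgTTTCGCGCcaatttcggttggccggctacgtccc
The Mcm7 window is that of 1 of its 2 start sites, and the other held no match. Mcm6 had 3 matches and the other genes 2 each. Members with a match had a median log2 fold change of -0.27 (13 genes) and members without one -0.34 (19 genes); a test of this difference was not made. A match is a run of letters and says nothing of binding in these mice.

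The genes that activate the helicase divided, around a median of -0.38 with all mice and -0.23 without control 3. Mcm10, which helps to open the ring (chromosome 2, 4989714 to 5012791), measured 6.16, 7.85 and 10.6 CPM in control 1 to 3 and 5.45, 5.62 and 5.46 CPM in cKO 1 to 3 (log2 fold change -0.58, SE 0.19, edgeR adjusted p = 0.202). The coefficient of variation was 1.70% over cKO mice and 27.4% over controls, and the groups did not overlap. Cdc45, the partner of the ring, was at -0.49 and Gins1 at -0.52, both without overlap. Gins2 (chromosome 8, 120578633 to 120589304), the highest of the 6 in CPM, measured 38.4, 42.8 and 47.8 CPM in control 1 to 3 and 35.8, 34.1 and 37.9 CPM in cKO 1 to 3 (log2 fold change -0.26, SE 0.089, edgeR adjusted p = 0.207). Its groups did not overlap, but 67.3% of its exonic bases lie opposite exons of Gse1, and reads of the genes cannot be told apart without strand.

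The other subunits of the same 4-part GINS complex did not go this way. Gins4 (chromosome 8, 23226616 to 23237659) measured 16.8, 17.8 and 17.8 CPM in control 1 to 3 and 16.96, 18.6 and 18.2 CPM in cKO 1 to 3 (log2 fold change 0.037, SE 0.068, edgeR adjusted p = 0.829). It was the steadiest member, with the highest library 1.11 times the lowest, and control 1 lay below all cKO mice. Gins3 was at -0.028 (SE 0.13), and its sign turned without control 3 (0.086). Per kb, Gins4 measured 12.96 ± 0.445 CPM in controls and Gins1 2.62 ± 0.673. A test of the difference between subunits was not made.

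Polymerase and primase genes were all lower, with a median of -0.29 with all mice and -0.16 without control 3. Prim2, the large subunit of primase (chromosome 1, 33453810 to 33669795), measured 11.1, 12.2 and 13.4 CPM in control 1 to 3 and 8.43, 9.90 and 8.87 CPM in cKO 1 to 3 (log2 fold change -0.43, SE 0.11, edgeR adjusted p = 0.117). The groups did not overlap, and the log2 fold change was -0.36 without control 3. Pola1, the catalytic subunit of polymerase alpha (chromosome X, 93304767 to 93632155), measured 28.99, 31.9 and 31.7 CPM in control 1 to 3 and 26.8, 28.5 and 27.1 CPM in cKO 1 to 3 (log2 fold change -0.17, SE 0.064, edgeR adjusted p = 0.243). Its difference was among the smaller ones, yet every cKO mouse was below every control. Prim1, the small primase subunit, was at -0.32, and Pole, the catalytic subunit of polymerase epsilon, at -0.34. Pold1, that of polymerase delta, was at -0.26 with all mice and -0.093 without control 3, and Pola2 at -0.17, and the groups overlapped for Pole, Pold1 and Pola2.

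Pcna, the sliding clamp that holds the polymerase on DNA (chromosome 2, 132249162 to 132253314), had the highest level per length of the 39 members and measured 71.2, 70.2 and 83.3 CPM in control 1 to 3 and 58.9, 61.8 and 62.5 CPM in cKO 1 to 3 (log2 fold change -0.29, SE 0.076, edgeR adjusted p = 0.129). Control 1 and control 2 lay close together, both above all cKO mice. The log2 fold change was -0.32 without control 1 and -0.21 without control 3. Rfc5, a subunit of the loader that opens the clamp (chromosome 5, 117378103 to 117389047), measured 17.4, 19.5 and 20.8 CPM in control 1 to 3 and 14.5, 15.98 and 15.1 CPM in cKO 1 to 3 (log2 fold change -0.34, SE 0.086, edgeR adjusted p = 0.124). Its groups did not overlap either. The loader subunits Rfc4 and Rfc3 were at -0.43 and -0.17, the latter with overlap. The Rfc3 window holds a pair of E2F motif matches at its start site, while the Pcna window holds none of these letters, and both are shown for that contrast.
Rfc3, chr5:151651159-151651458, minus strand: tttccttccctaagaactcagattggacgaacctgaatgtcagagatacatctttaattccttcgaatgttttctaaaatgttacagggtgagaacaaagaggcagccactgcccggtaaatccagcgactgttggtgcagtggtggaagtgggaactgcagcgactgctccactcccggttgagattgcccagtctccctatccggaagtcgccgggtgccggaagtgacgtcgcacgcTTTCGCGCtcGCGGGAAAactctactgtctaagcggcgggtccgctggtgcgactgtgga
Pcna, chr2:132253131-132253430, minus strand: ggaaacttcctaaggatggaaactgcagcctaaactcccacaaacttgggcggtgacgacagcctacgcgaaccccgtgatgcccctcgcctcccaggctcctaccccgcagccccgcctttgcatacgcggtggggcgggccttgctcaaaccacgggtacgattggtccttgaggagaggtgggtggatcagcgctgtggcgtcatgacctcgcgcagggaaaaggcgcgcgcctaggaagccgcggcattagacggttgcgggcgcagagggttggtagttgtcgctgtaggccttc
The matches of Rfc3 begin at -10 and at 0 bases from the start site.

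The 3 genes of single-stranded DNA and the lagging strand had a median of -0.36 with all mice and -0.22 without control 3. Lig1, the ligase that joins Okazaki fragments (chromosome 7, 13277283 to 13311433), measured 31.1, 35.7 and 38.5 CPM in control 1 to 3 and 27.7, 28.05 and 26.01 CPM in cKO 1 to 3 (log2 fold change -0.36, SE 0.087, edgeR adjusted p = 0.114). It had the lowest unadjusted p of the 39 members, and every cKO mouse was below every control. Fen1, the flap nuclease that trims the fragments, was at -0.39 and the single-strand binding subunit Rpa2 at -0.26, also without overlap. For Fen1, 84.2% of the exonic bases lie opposite those of Gm10143, so its counts may include reads of that gene. Shares of 10.7% to 12.7% lie opposite another gene in Orc1, Mcm7, Rfc4 and Rfc5. Pcna and Tyms have named pseudogenes, which may hold some of their reads.

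The 4 genes of nucleotide supply were lower in mean, with a median of -0.34, but in each of them the groups overlapped. Rrm1, the large subunit of ribonucleotide reductase (chromosome 7, 102441695 to 102469771), measured 70.9, 80.3 and 91.7 CPM in control 1 to 3 and 67.6, 71.6 and 66.3 CPM in cKO 1 to 3 (log2 fold change -0.24, SE 0.094, edgeR adjusted p = 0.254). Rrm2, the small subunit that limits the enzyme in S phase (chromosome 12, 24708241 to 24714146), measured 18.97, 23.2 and 27.7 CPM in control 1 to 3 and 19.4, 17.6 and 16.7 CPM in cKO 1 to 3 (log2 fold change -0.38, SE 0.14, edgeR adjusted p = 0.227). In both, control 1 lay within the cKO range. The same held for Tyms, thymidylate synthase, at -0.40 and for Tk1, thymidine kinase, at -0.29. Without control 1 the median of the 4 genes was -0.46, and without control 3 -0.20.

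The 3 genes that restore chromatin behind the fork had a median of -0.36 with all mice and -0.23 without control 3. Their summed levels were lower by 27.1%, and the ratio of cKO over control was 0.729 with all mice and 0.837 without control 3. Uhrf1, which brings DNA methylation to the new strand (chromosome 17, 56303321 to 56323486), measured 32.2, 33.04 and 52.2 CPM in control 1 to 3 and 27.9, 25.9 and 26.2 CPM in cKO 1 to 3 (log2 fold change -0.55, SE 0.18, edgeR adjusted p = 0.199). Control 3 was far above the others, and the log2 fold change was -0.29 without it. Chaf1a, the large subunit of the histone chaperone CAF-1 (chromosome 17, 56040439 to 56072289), measured 21.1, 24.3 and 28.2 CPM in control 1 to 3 and 18.6, 20.3 and 19.4 CPM in cKO 1 to 3 (log2 fold change -0.34, SE 0.11, edgeR adjusted p = 0.193). Its groups did not overlap, and 52.5% of its exonic bases lie opposite those of Ubxn6. Chaf1b, another subunit, was at -0.36 with overlap.

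The genes upstream of S phase showed the smallest differences of the roles, with a median of -0.15. Ccne2, a cyclin that drives entry into S phase (chromosome 4, 11191351 to 11204779), measured 12.5, 12.1 and 15.6 CPM in control 1 to 3 and 11.5, 10.7 and 10.2 CPM in cKO 1 to 3 (log2 fold change -0.31, SE 0.12, edgeR adjusted p = 0.241). Its groups did not overlap, and 17.4% of its exonic bases lie opposite those of Ints8. Ccne1, the other cyclin E (chromosome 7, 38097984 to 38107534), measured 5.34, 6.25 and 6.37 CPM in control 1 to 3 and 7.79, 4.80 and 6.13 CPM in cKO 1 to 3 (log2 fold change 0.060, SE 0.19, edgeR adjusted p = 0.901). It had the largest spread over cKO mice of all members, 24.01% as a coefficient of variation, with cKO 1 the highest and cKO 2 the lowest of the 6 libraries. Its sign turned without control 1 (-0.0098) and without cKO 1 (-0.13). E2f1, the transcription factor that gives the E2F motif its name, was at -0.15 with all mice and at -0.0029 without control 3.

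**Figure D4:**
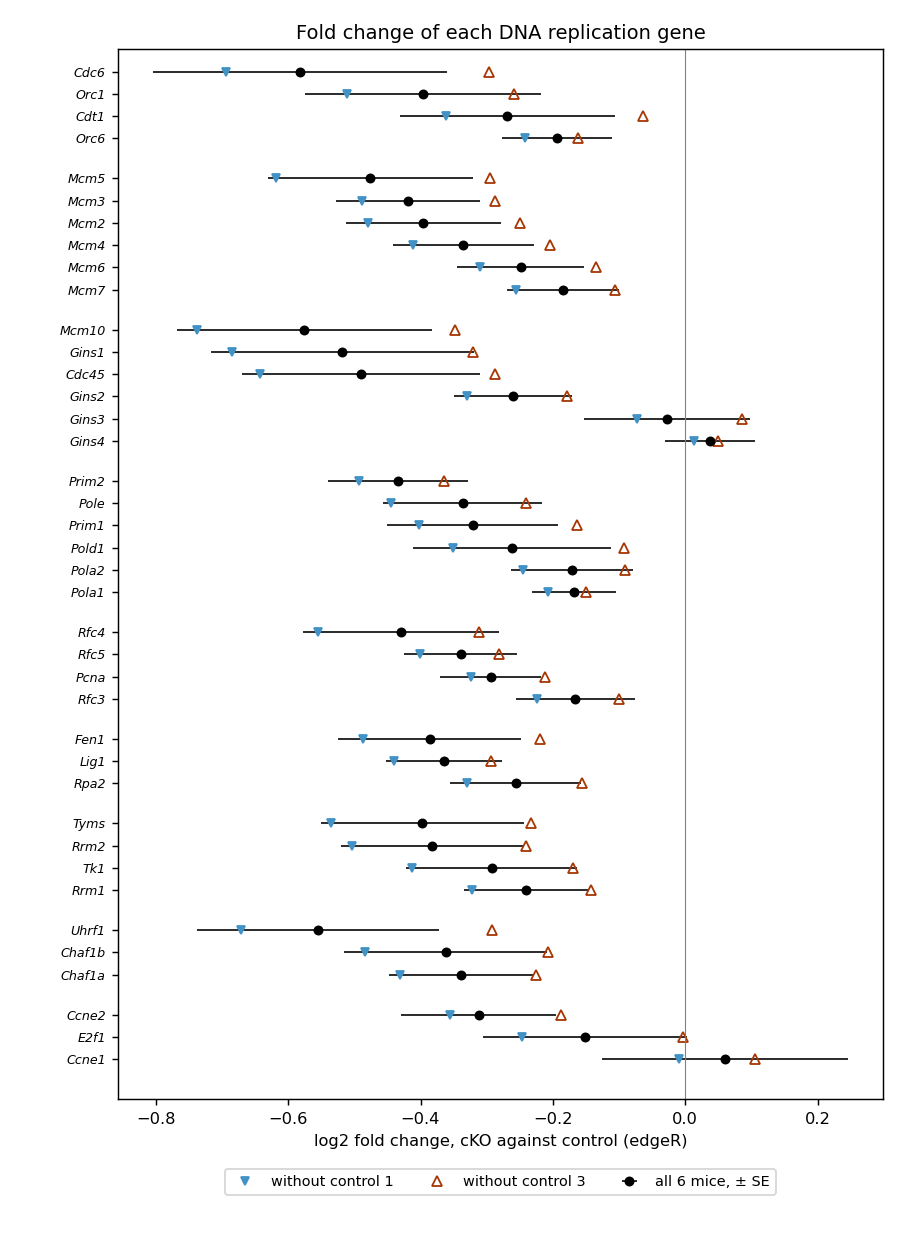
Black points give the edgeR log2 fold change of each replication gene with its standard error, cKO against control, and triangles give the same value with control 1 or control 3 left out. For most genes the value without control 3 is nearer to 0 and the value without control 1 farther from it; at the median member they are -0.21 and -0.41, around -0.34 with all 6 mice.

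A list of 50 other replication genes was also lower in mean, with a median nearer to 0, and the difference between the lists was not tested. Its median log2 fold change was -0.23 with all mice and -0.14 without control 3, 49 of 50 genes were below 0, and 0 passed by edgeR in either direction. At an unadjusted edgeR p under 0.05, 20 were lower (8.55% of all tested genes) and 0 higher, and in 25 every cKO mouse was below every control (12.0%). DESeq2 called 5 lower (3.66%) and 0 higher. Hells, a chromatin remodeller of replicating cells, measured 23.2, 25.6 and 33.99 CPM in control 1 to 3 and 19.2, 17.5 and 17.01 CPM in cKO 1 to 3 (log2 fold change -0.62, SE 0.14, edgeR adjusted p = 0.107). Wdhd1, which links the helicase to polymerase alpha, measured 12.4, 13.9 and 15.5 CPM in control 1 to 3 and 10.4, 10.2 and 10.7 CPM in cKO 1 to 3 (log2 fold change -0.42, SE 0.098, edgeR adjusted p = 0.110). Control 3 was highest in both genes, and all cKO mice lay below control 1, as they did in 23 of the 39 members. The 1 gene above 0 was the polymerase delta subunit Pold4, at 0.047. In this list as well, 15 of the 41 genes with a promoter window (36.6%) held an E2F motif match.

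Mitosis genes, which act after S phase, gave control 1 another place among the 6 mice. All 28 were below 0, with a median of -0.34, 0 passed by edgeR, 11 were lower at an unadjusted edgeR p under 0.05 (8.55% of all tested genes), and DESeq2 called 3 lower (3.66% of genes). The summed level was 630.1, 893 and 991 CPM in control 1 to 3 and 678, 632 and 637 CPM in cKO 1 to 3. Control 1 thus had the lowest sum of the 6 mice for mitosis genes, close to cKO 2 and cKO 3. For replication genes its sum was above those of all cKO mice. The groups did not overlap, toward lower values in cKO, in 4 of the 28 mitosis genes, a share near the 12.0% of all tested genes. Without control 1 the median was -0.51, and without control 3 -0.22. A test of the difference between the lists was not made. Mki67, the proliferation marker, measured 118, 180.4 and 192 CPM in control 1 to 3 and 134, 116 and 124 CPM in cKO 1 to 3 (log2 fold change -0.39, SE 0.17, edgeR adjusted p = 0.304). Top2a, the topoisomerase that untangles sister chromatids, measured 81.6, 115 and 129.9 CPM in control 1 to 3 and 81.4, 74.2 and 76.8 CPM in cKO 1 to 3 (log2 fold change -0.49, SE 0.16, edgeR adjusted p = 0.189). The lowest p in the list were those of Ncapg (-0.50) and Bub1 (-0.59). An E2F motif match stood in the windows of 2 of 24 mitosis genes (8.33%).

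Genes of quiescence and cell cycle arrest had a median near 0 as a list. The median of the 16 genes was -0.0022, with 8 below 0 and 8 above, and its sign turned under 6 alternatives. No gene passed by edgeR or by DESeq2. At an unadjusted edgeR p under 0.05, 0 were higher (8.71% of all tested genes) and 1 was lower (8.55%). That gene was Rbl1, the S phase member of the retinoblastoma family, which measured 27.8, 30.3 and 33.6 CPM in control 1 to 3 and 25.4, 25.3 and 26.1 CPM in cKO 1 to 3 (log2 fold change -0.25, SE 0.079, edgeR adjusted p = 0.178). Btg1, an antiproliferative factor, was at -0.15. Of the 52 histone genes in the table, chosen by the cluster names of replication-dependent histones, 20 passed the filter. Among these, 14 were below 0 (50.0% of all tested genes), with a median of -0.20 with all mice and -0.048 without control 3. The summed level of the 52 genes was slightly higher in cKO mice, within their spread, at 88.1 ± 3.68 CPM in controls against 92.4 ± 10.4 CPM (SD, n = 3). 0 of the 20 had an unadjusted edgeR p under 0.05, and DESeq2 called 0, and the 2 of lowest p were Hist3h2ba (-0.49) and Hist1h2bg (-1.28). Histone genes have near-identical copies, between which reads can be split, so these counts are uncertain.

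Summed levels of markers of other cells also differed between the groups. The 12 dental epithelium markers added up to 62146, 62833 and 82441 CPM in control 1 to 3 and 36066, 49129 and 24006 CPM in cKO 1 to 3. In these sums control 3 was highest and every cKO mouse was below every control. At the median marker the groups overlapped, as log2 CPM less the control mean was -0.060 in cKO 1 but -0.19 in control 1 and -0.071 in control 2. Of these 12 markers, 9 were below 0 (50.0% of all tested genes), 0 passed by edgeR, and DESeq2 called 4 lower (3.66% of genes) and 1 higher (4.02%). The enamel gene Amelx gave a large part of the sum, and the list was not uniform, since Krt14, a keratin of basal epithelial cells, was at 0.38. The 6 late enamel markers, also epithelial, mostly went the other way, with 5 of 6 above 0 and a median of 1.35 (0.84 without control 1). Of these markers, 0 passed by edgeR, and DESeq2 called 1 lower (3.66% of genes) and 0 higher (4.02%). Their sums were 644, 2325 and 671 CPM in control 1 to 3 and 3104, 1866 and 1540.5 CPM in cKO 1 to 3, so control 2 lay within the cKO range. The 14 mesenchyme markers, of which 12 were above 0, added up to 21345, 17599 and 12861 CPM and 31122, 24415 and 41821 CPM, with control 3 lowest. Below 0 were 2 of them, where 50.0% of all tested genes were. Their median log2 fold change was only 0.11, as a sum follows its most abundant genes. Of these 14, 0 passed by edgeR, and DESeq2 called 5 higher (4.02% of genes) and 0 lower (3.66%). The 6 macrophage markers were all above 0 (385 ± 61.02 against 567 ± 69.02 CPM, control against cKO, SD, n = 3), as were the 6 endothelial markers (438 ± 15.1 and 525 ± 15.8 CPM). By edgeR 0 of these passed, and DESeq2 called 5 macrophage and 4 endothelial markers higher (4.02% of genes). The 8 neutrophil and marrow markers were high in cKO 1 (44.4 CPM) and cKO 2 (19.8 CPM) against 1.34 to 2.80 CPM in the 4 other libraries, where Mpo and Elane were at 0 in control 2 and Camp and Elane in cKO 3. Of the 5 that were tested, 0 passed by edgeR, and DESeq2 called 3 higher (4.02% of genes) and 0 lower (3.66%). The 6 erythroid markers were also highest in these 2 libraries, at 83.8 CPM in cKO 1 and 114.7 CPM in cKO 2. The 4 other libraries had 25.9 to 53.8 CPM. Of the 5 erythroid markers tested, 0 passed by edgeR, and DESeq2 called 1 higher (4.02% of genes). The part of any of these cell types, epithelium and mesenchyme included, in the replication result was not tested. Of the skeletal muscle markers, high in control 1, Myh2 was at 0 in control 3 and cKO 2. Control 1 was also the mouse with Ddx3y counts and the lowest control in 35 members, so muscle RNA, sex and low replication levels came in 1 library, and their parts cannot be told apart.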

How the data were processed

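Per the labels' protocols, sequencing on a NextSeq500 was single-end with 75 cycles, from RNA of integrity numbers above 9.0. STAR 2.6.1d, Partek and the build mm10 are listed per the submitters' processing notes. The sources used here do not give the counting settings, annotation release or strandedness. The deposited estimated counts (25700 genes, 45.6% to 48.0% of values whole within 1e-09) are not normalized, and no row lacked a gene name. The deposited normalized signal (20676 genes) equals the count plus 1 times 1 factor per library in 100% of values within 0.1%, and served as an alternative only.

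Counts were rounded, filtered with filterByExpr (minimum count 10, minimum total 15) and scaled by TMM. All 6 libraries entered 1 two-sided quasi-likelihood F-test (edgeR 4.0.16, R 4.3.3) with no covariate, with Benjamini-Hochberg adjustment over 19264 genes and a threshold of 0.05. A standard error is the absolute log2 fold change over the square root of F. DESeq2 1.42.0 and limma 3.58.1 gave alternatives. A count was worth 0.0149 to 0.0186 CPM. Pairs of libraries within a group differed by far more than counting noise (chi-square per degree of freedom 46.0 to 73.3), so none was treated as a repeat. The scripts were tested on simulated data.

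Members and lists were chosen with earlier results of these data known. Values in every library are given for the member of lowest p and of highest CPM in each role, and for any member opposite in sign to its role's median. From other lists come the 2 genes of lowest p, with Mki67, Top2a and Runx2. Promoter windows shown are those with the most E2F matches and that of Pcna. Gene ends are the deposited ends less 1, and 38 of 39 members then match GENCODE M21, on the same assembly. In that annotation 13 members share exonic bases with another gene, 8 of them at least 10%. CPM per kb divides CPM by the union of exons.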

Additional observations from a re-analysis of the deposited data

How the results depend on the processing

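The median of the replication genes stayed below 0 under all 14 alternatives, and 36 to 38 of the 39 members were below 0. By DESeq2, 7 members were called lower instead of 0, and over all genes DESeq2 called 635 lower and 698 higher where edgeR called 1 and 4. With 1 mouse left out at a time, edgeR called 0 to 44 genes lower and 0 to 28 higher, the most without control 2. The median of the quiescence and cell cycle inhibitor genes, -0.0022, turned to 0.000376 with RLE normalization, 0.00479 with upper-quartile normalization, 0.00628 with unfiltered counts, 0.0515 where at least 1 CPM in 3 libraries was required, 0.000525 by DESeq2 and 0.00264 without control 3 (-0.0301 to 0.00264 over the mice left out). Gins3 turned to 0.0861 without control 3 and to 0.0349 without cKO 2 (-0.0868 to 0.0861 over the mice left out), and Ccne1 to -0.00978 without control 1 and to -0.129 without cKO 1 (-0.129 to 0.224). The cause was not tested.

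No paired analysis was possible because the protocol mentions 3 pairs of samples but no label says which mice form a pair. With 3 mice a group, the precision is set by the spread between mice rather than by depth. Where nothing says that RNA was extracted on separate occasions, p-values measure the spread between these samples.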
